A study of Mus musculus with 302 samples.

Results

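Liver RNA of 75 collagen-high mice was set against that of 75 collagen-low mice, which together are 150 of the 302 F2 mice measured. The mice were chosen by a score from the measured values of the 3 genes Col1a1, Col1a2 and Lum. Each of these genes was averaged over its probes, centred within 4 blocks of mice and divided by its standard deviation over all mice, and the 3 results were averaged. The blocks are given by whether the log ratio of the Y-linked gene Eif2s3y lay above or below -0.8 and by whether the number in the mouse's title was above 212 or not. The 75 highest scores make the collagen-high group and the 75 lowest the collagen-low group, and the other 152 mice are called the middle mice. The words high and low refer to RNA, since the labels give no histology, no trait and no measure of collagen protein for any mouse.

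All of the mice are (C57BL/6J x C3H/HeJ)F2 animals or their reciprocal cross, females and males. Their first diet, up to the age of 8 weeks, was a 4% fat chow, and a Western diet of 42% fat and 0.15% cholesterol followed over 12 weeks, before they were killed at 20 weeks after 12 h without food. Both groups share this cross, diet and age, so no liver of a mouse kept on chow is among them, and the labels state neither sex nor genotype for a single animal. Each array held the RNA of 1 mouse in Cy3 against a pool of equal portions of all mice in Cy5, and each value is read here as the log ratio of mouse to pool.

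A scarred liver is one in which fibrillar collagen builds up between the hepatocytes. Most of that collagen comes from hepatic stellate cells, which store vitamin A when quiescent and turn into contractile, matrix-secreting myofibroblasts when activated, with a share from portal fibroblasts. In fatty liver disease this activation is known to accompany lipid accumulation in hepatocytes and the arrival of monocyte-derived macrophages.

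The score genes encode the alpha chains of type I collagen and lumican, a keratan sulfate proteoglycan that binds collagen fibrils. Their values chose the mice and are given as a description. Col1a1 lay between -0.575 and 0.767 with a median of 0.127 in collagen-high livers, and between -1.15 and 0.424 with a median of -0.681 in collagen-low livers. Col1a2 lay between -0.0843 and 0.382 with a median of 0.0655 in collagen-high livers, and between -0.272 and -0.0265 with a median of -0.160 in collagen-low livers. Lum lay between -0.175 and 0.590 with a median of 0.0969 in collagen-high livers, and between -0.450 and 0.104 with a median of -0.182 in collagen-low livers. For Col1a2, 67 collagen-high mice lay above every collagen-low mouse, whereas the pooled ranges of Col1a1 overlapped far more, as the plot of the score genes shows. Ranges here and below pool the blocks without centring unless a block is named. For upper Eif2s3y values and later numbers, Col1a1 was at least -0.340 in collagen-high and at most -0.516 in collagen-low mice. For lower values and later numbers these limits were -0.575 and -0.827. In both blocks of earlier numbers the ranges of Col1a1 overlapped. After centring in blocks, Pearson's r over the 302 mice was 0.809 for Col1a1 with Col1a2, 0.682 for Col1a2 with Lum and 0.581 for Col1a1 with Lum. The lowest score among the collagen-high mice was 0.518 and the next mouse below it had 0.513. At the other end the highest collagen-low score was -0.660 and the next mouse above it had -0.658, so neither border falls in a gap. The highest score of all was 3.18 and the lowest -2.32.

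**Figure D1:**
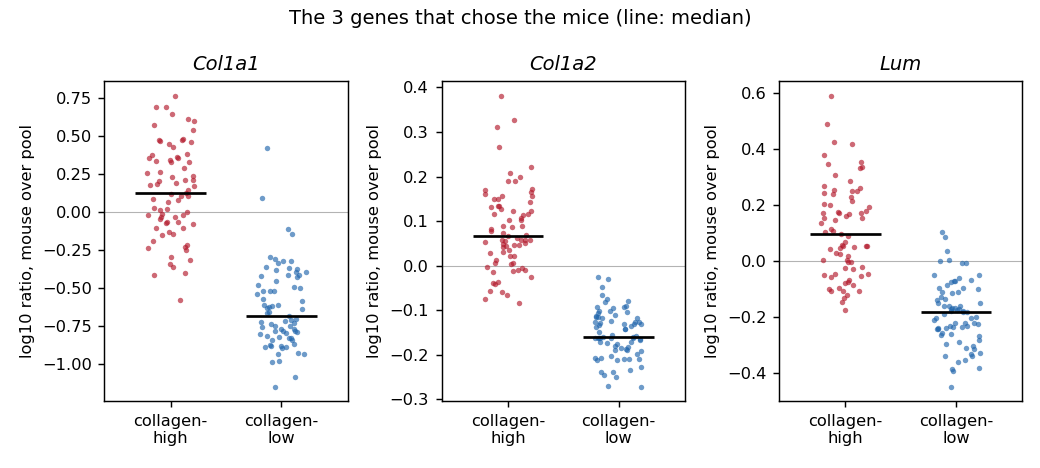
Log10 ratio of mouse over pool for Col1a1, Col1a2 and Lum in 75 collagen-high and 75 collagen-low mice, 1 point per mouse with the median as a line. These values chose the mice: the medians are 0.127 against -0.681 for Col1a1, 0.0655 against -0.160 for Col1a2 and 0.0969 against -0.182 for Lum.

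The comparison ran over 21703 features other than the genes of the rule, 10811 of them named genes, with the 4 blocks in the fit. It called 12273 features at an adjusted p under 0.05, which is 56.5% of all. Calls of a higher level in collagen-high livers made up 19.2% of the features and calls of a lower level 37.3%, so that a lower call by itself is common. Calls of over 1.2-fold were fewer, 7.42% of the features higher and 2.42% lower, and the counts below are to be read against these shares. The median difference over all features was -0.0104 on the log10 scale, close to none. Arrays of collagen-high mice had a spread over their features (SD of log10 ratios) of 0.0719 to 0.223 with a median of 0.0938, and those of collagen-low mice of 0.0791 to 0.258 with a median of 0.106. Of the 30 arrays with the widest spread in the series, 5 belong to collagen-high and 13 to collagen-low mice. Array medians were slightly lower in the collagen-high group, with a median of -7.46e-04 against 0.00825. The log base and direction of the deposited values are not stated, and log10 of mouse over pool is the likely reading. Turning the sign would exchange the names high and low, and a gene that moves with the collagen genes would still do so. Arrays correlated with each other as low as -0.519, although all share the same dye orientation per the labels.

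The 20 named genes with the largest rise in collagen-high livers included genes of macrophages, of matrix turnover and of lipid storage. Gpnmb lay between -0.555 and 0.893 with a median of 0.140 in collagen-high livers, and between -1.04 and 0.220 with a median of -0.730 in collagen-low livers. Gpnmb, a lysosomal membrane glycoprotein of lipid-loaded macrophages, was 6.59-fold higher (difference 0.819 ± 0.0391, log10 ratio, SE, adjusted p = 5.20e-42), and 58 of the 75 collagen-low mice lay below every collagen-high mouse. Mmp12 lay between -0.654 and 0.812 with a median of 0.102 in collagen-high livers, and between -1.22 and 0.136 with a median of -0.749 in collagen-low livers. Macrophage elastase, the product of Mmp12, was thus 6.22-fold higher (difference 0.794 ± 0.0469, log10 ratio, SE, adjusted p = 2.13e-33), with 46 collagen-low mice below the collagen-high range. Trem2 lay between -0.370 and 0.728 with a median of 0.107 in collagen-high livers, and between -0.882 and 0.344 with a median of -0.465 in collagen-low livers. For Trem2, the lipid-sensing receptor that marks macrophages of fatty and injured liver, the level was 3.64-fold higher (difference 0.562 ± 0.0301, log10 ratio, SE, adjusted p = 3.05e-37), and 59 collagen-low mice lay below the whole collagen-high range. Cidea lay between -1.64 and 0.816 with a median of -0.0223 in collagen-high livers, and between -1.77 and 0.592 with a median of -1.32 in collagen-low livers. Cidea, a lipid droplet protein that fuses droplets, had the largest fitted difference of all, 7.48-fold higher (difference 0.874 ± 0.0800, log10 ratio, SE, adjusted p = 6.34e-19). With the blocks pooled, however, each group spanned almost the whole range of the other.

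Others of the 20 were receptors and surface proteins of myeloid cells. Clec7a, the beta-glucan receptor dectin-1, was 3.31-fold higher, Itgax, which encodes CD11c, 2.83-fold higher, Siglecf, a sialic acid-binding lectin, 2.88-fold higher, Cd63, a tetraspanin of late endosomes, 2.9-fold higher, and Adam8, a membrane-bound metalloprotease, 3.07-fold higher. The monocyte-attracting chemokines Ccl2 and Ccl7 were 3.64-fold higher and 2.88-fold higher. Sprr1a, a cornified envelope precursor also found in stressed tissue, was 6.03-fold higher, Ubd, a ubiquitin-like modifier induced by inflammatory cytokines, 5.23-fold higher, and Ly6d, a surface protein on a lipid anchor, 3.71-fold higher. Anxa2, an annexin that binds phospholipids, was 3.29-fold higher, Slpi, a secreted leukocyte protease inhibitor, 2.88-fold higher, Egr2, a zinc finger transcription factor, 3.27-fold higher, Sdcbp2, a syntenin, 3.38-fold higher, and Mtmr11, a myotubularin relative, 3.44-fold higher. All 20 had an adjusted p of at most 6.34e-19 and the same sign in each of the 4 blocks fitted alone.

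The upstream windows of these genes were searched for a loose form of the AP-1 motif, chosen after the genes' values were seen. RefSeq windows of 250 bases before to 50 after a gene's start (GRCm38.p6) were at hand for 16 of the 20, and none for Cidea, Ly6d, Ccl2 and Ccl7. The motif searched was TGANTCA, where N is any base, which reads as the same pattern on both strands. The AP-1 consensus is narrower, with C or G at N. The searched motif stood in a window of 7 of these genes, namely Sdcbp2, Sprr1a, Gpnmb, Itgax, Mmp12, Anxa2 and Trem2. The match in Trem2 was TGAATCA, outside that consensus, and the matches in the others had C or G at N. Of the 26742 genes in the set of windows used, which leaves out 1 chromosome, 8.97% hold TGANTCA, and of the distinct windows in that set 7.79%. Among the 15 genes with the largest fall, described further on, it stood in 1 of 12, Igfbp2, and among the collagen genes called higher in 1 of 8, Col6a1. The windows of 4 macrophage genes are printed 5′ to 3′ on the gene's strand, with the motif in capitals, to show where it lies. The first base of the motif is at position -44 from the gene start in Mmp12, 9 in Gpnmb, -9 in Trem2 and -56 in Itgax, counted with the start as 1. Mmp12 has a further window in the table, at another start, which does not hold the motif, and the other 3 genes have 1 window each. A match shows these letters only and not that a factor binds there.
Mmp12, chr9:7347124-7347423, plus strand: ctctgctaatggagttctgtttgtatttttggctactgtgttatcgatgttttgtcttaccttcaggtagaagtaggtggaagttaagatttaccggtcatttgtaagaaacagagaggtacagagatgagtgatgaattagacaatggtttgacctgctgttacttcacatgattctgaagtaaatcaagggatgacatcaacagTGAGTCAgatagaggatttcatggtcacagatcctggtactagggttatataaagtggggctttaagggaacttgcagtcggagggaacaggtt
Gpnmb, chr6:49036268-49036567, plus strand: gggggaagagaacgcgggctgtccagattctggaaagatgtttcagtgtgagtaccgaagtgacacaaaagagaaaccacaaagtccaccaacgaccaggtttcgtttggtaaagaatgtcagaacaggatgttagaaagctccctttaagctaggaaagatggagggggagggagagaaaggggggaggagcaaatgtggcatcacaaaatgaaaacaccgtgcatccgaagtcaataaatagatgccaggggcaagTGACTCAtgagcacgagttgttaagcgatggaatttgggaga
Trem2, chr17:48346151-48346450, plus strand: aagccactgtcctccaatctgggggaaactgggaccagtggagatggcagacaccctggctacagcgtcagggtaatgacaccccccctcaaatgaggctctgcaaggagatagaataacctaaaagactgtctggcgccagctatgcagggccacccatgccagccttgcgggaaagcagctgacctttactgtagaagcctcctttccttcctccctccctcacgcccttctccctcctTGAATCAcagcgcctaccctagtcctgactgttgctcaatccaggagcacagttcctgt
Itgax, chr7:128129300-128129599, plus strand: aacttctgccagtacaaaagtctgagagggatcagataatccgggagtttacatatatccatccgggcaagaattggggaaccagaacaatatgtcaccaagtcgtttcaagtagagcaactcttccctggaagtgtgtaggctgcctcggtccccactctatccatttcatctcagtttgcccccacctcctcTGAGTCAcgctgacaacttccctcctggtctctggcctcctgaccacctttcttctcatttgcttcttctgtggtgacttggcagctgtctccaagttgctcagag

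Among the collagen genes, 32 others were tested, 10 were called higher and 10 lower, with a list median of -0.00955 on the log10 scale against -0.0104 over all features. Each count is 31.25% of the list, beside 19.2% of all features called higher and 37.3% called lower. The 10 that rose encode chains of fibrillar, fibril-associated, microfibrillar, network-forming and basement membrane collagens. Col6a3 lay between -0.134 and 0.570 with a median of 0.156 in collagen-high livers, and between -0.512 and 0.186 with a median of -0.269 in collagen-low livers. Col6a3, a chain of the microfibrillar type VI collagen, was 2.51-fold higher (difference 0.400 ± 0.0188, log10 ratio, SE, adjusted p = 1.22e-42), and 66 collagen-low mice lay below every collagen-high mouse. Of the type V chains, which nucleate type I fibrils, Col5a1 was 1.52-fold higher (difference 0.183 ± 0.0115, log10 ratio, SE, adjusted p = 3.25e-31). Col5a2 lay between -0.272 and 0.467 with a median of 0.0455 in collagen-high livers, and between -0.468 and 0.630 with a median of -0.236 in collagen-low livers. Col5a2 was 1.62-fold higher over all mice, but in the lower Eif2s3y cluster its difference was near 0, with values further on.

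The basement membrane chains Col4a1 and Col4a2, made from neighbouring genes, were 1.59-fold higher and 1.56-fold higher. Col14a1 lay between -0.242 and 0.260 with a median of 0.0928 in collagen-high livers, and between -0.381 and 0.0517 with a median of -0.111 in collagen-low livers. Col14a1, which lines the surface of fibrils, was 1.59-fold higher, and 51 collagen-high mice lay above every collagen-low mouse. Smaller rises were those of Col8a1 (1.27-fold), Col15a1 (1.23-fold), Col5a3 (1.23-fold) and Col6a1 (1.12-fold), while the partner chain Col6a2 stayed at 1.02-fold and was not called. With the score made without Col1a1, Col5a3 was not called either, at 0.0314 against 0.0900 (log10 ratio). The 10 that fell did so by 1.05- to 1.11-fold, with Col18a1, the source of endostatin, at 1.11-fold lower and Col11a2, a cartilage collagen, at 1.09-fold lower the largest. Col3a1 was not analysed here.

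**Figure D2:**
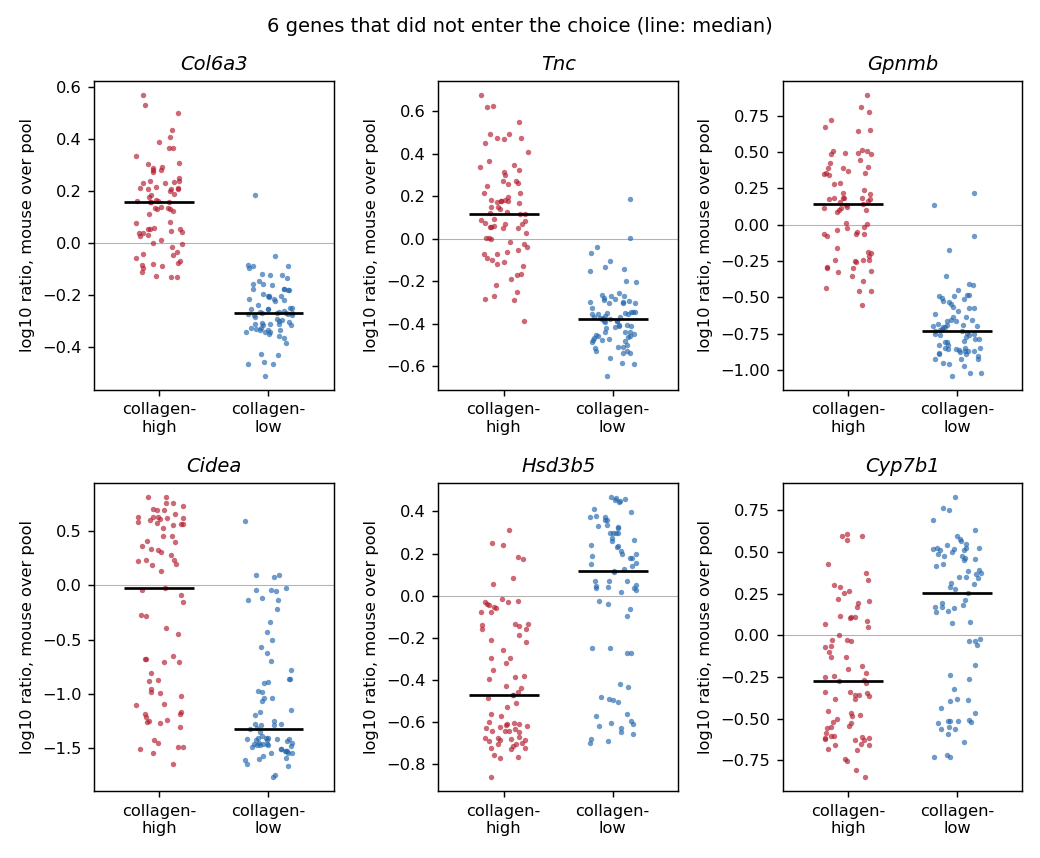
Log10 ratio of mouse over pool for 6 genes that took no part in choosing the mice, 1 point per mouse with the median as a line, in 75 collagen-high and 75 collagen-low mice. Below every collagen-high point lie 66 collagen-low points for Col6a3, 58 for Gpnmb and 34 for Tnc. For Cidea, Hsd3b5 and Cyp7b1 both groups, with the blocks pooled and not centred, spread over much the same range. Their medians are -0.0223 against -1.32, -0.469 against 0.115 and -0.272 against 0.252.

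Genes of non-collagenous matrix proteins were more often called higher than lower. Of the 39 glycoproteins and proteoglycans tested, 25 were called higher, 8 lower and 6 not, with a list median of 0.0937 (log10 ratio). Tnc lay between -0.388 and 0.677 with a median of 0.117 in collagen-high livers, and between -0.645 and 0.187 with a median of -0.379 in collagen-low livers. Tenascin C, a glycoprotein of healing wounds encoded by Tnc, was 3.11-fold higher (difference 0.492 ± 0.0256, log10 ratio, SE, adjusted p = 1.42e-38), and 34 collagen-low mice lay below the collagen-high range. Postn, the collagen-binding periostin, was 1.99-fold higher, Sparc, which guides collagen assembly, 1.99-fold higher, Fbln2, an elastic fibre component, 1.79-fold higher, and Thbs2, a thrombospondin, 1.69-fold higher. The small proteoglycans biglycan (Bgn, 1.21-fold) and decorin (Dcn, 1.2-fold) rose less. The latent TGF-beta binding proteins Ltbp1 and Ltbp3 were 1.49-fold higher and 1.44-fold higher, and elastin (Eln), at 1.05-fold lower, was not called.

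Basement membrane genes had 8 of 12 called higher and 1 lower. Nid1, which links laminin to type IV collagen, was 1.73-fold higher and the laminin chain Lama2 1.65-fold higher.

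Of 23 genes that fold, trim and crosslink collagen, 11 were called higher and 6 lower. These are 47.8% and 26.1%, beside 19.2% and 37.3% of all features. By over 1.2-fold, 7 were called higher and 0 lower. Serpinh1, the collagen chaperone HSP47, was 1.82-fold higher (difference 0.260 ± 0.0181, log10 ratio, SE, adjusted p = 3.45e-27). Pcolce lay between -0.132 and 0.294 with a median of 0.102 in collagen-high livers, and between -0.303 and 0.210 with a median of -0.161 in collagen-low livers. Pcolce, which speeds removal of the C-terminal propeptide, was 1.73-fold higher (difference 0.238 ± 0.0128, log10 ratio, SE, adjusted p = 3.05e-37), and 46 collagen-low mice lay below the collagen-high range. Lox, the crosslinking enzyme lysyl oxidase, was 1.55-fold higher. The propeptide protease Bmp1 was 1.13-fold lower, and Ppib, a prolyl isomerase of the endoplasmic reticulum, 1.15-fold lower.

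Matrix proteases and their inhibitors had 15 of 24 called higher and 4 lower, 12 of them higher by over 1.2-fold. Beside Mmp12, the collagenase Mmp13 was 2.3-fold higher and the gelatinase Mmp2 1.73-fold higher. The secreted serine proteases Htra1 and Htra3 were 1.95-fold higher and 1.82-fold higher, and tissue plasminogen activator (Plat) 1.71-fold higher. Among the inhibitors Timp3 was 1.39-fold higher and Timp2 1.18-fold higher, whereas Timp1, at 1.04-fold, was not called. The gelatinase Mmp9 was 1.08-fold lower.

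Pdgfrb led the stellate cell markers. Of 14 tested, 7 were called higher, 2 lower and 5 not, with a list median of 0.0398 (log10 ratio). Pdgfrb lay between -0.207 and 0.357 with a median of 0.0586 in collagen-high livers, and between -0.397 and 0.330 with a median of -0.190 in collagen-low livers. Pdgfrb, the receptor through which stellate cells respond to platelet-derived growth factor, was 1.8-fold higher (difference 0.254 ± 0.0168, log10 ratio, SE, adjusted p = 2.14e-29), and the groups overlapped except for 28 collagen-low mice under and 2 collagen-high mice over the other group's range. Lrat, the enzyme that stores retinol as esters, was 1.34-fold higher, Tcf21, a transcription factor of these cells, 1.29-fold higher, and Reln, which encodes reelin, 1.18-fold higher. Nestin (Nes) and the collectin Colec10 were 1.07-fold lower and 1.11-fold lower. Colec10 was not called with the score made without Lum, at -0.0260 against -0.0465 (log10 ratio), with the mean of the macrophage markers as a covariate or in any block alone, and Nes not with that covariate. In bulk liver RNA, more cells of a type and more RNA per cell cannot be told apart, for these and for all other cell markers given here.

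Contractile and cytoskeletal genes of myofibroblasts had 6 of 13 called higher and 3 lower. Vim lay between -0.214 and 0.565 with a median of 0.166 in collagen-high livers, and between -0.488 and 0.116 with a median of -0.272 in collagen-low livers. Vimentin (Vim), the intermediate filament of mesenchymal cells and leukocytes, was 2.54-fold higher (difference 0.405 ± 0.0205, log10 ratio, SE, adjusted p = 1.17e-39), and 49 collagen-high mice lay above every collagen-low mouse. S100a6 and Lgals1, found in many cell types, were 2.56-fold higher and 1.8-fold higher. Acta2 lay between -0.247 and 0.541 with a median of 0.00992 in collagen-high livers, and between -0.257 and 0.388 with a median of -0.115 in collagen-low livers. The smooth muscle actin gene Acta2, the usual marker of activated stellate cells, was 1.36-fold higher (difference 0.134 ± 0.0223, log10 ratio, SE, adjusted p = 8.33e-08), with almost full overlap of the groups. Its companion Tagln was 1.53-fold higher, and the smooth muscle genes Cnn1, at 1.02-fold, and Myh11, at 1.06-fold, were not called.

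Portal fibroblast markers had 6 of 13 called higher and 2 lower. Cd34, also made by endothelium, was 1.95-fold higher, Gas6, a ligand of TAM receptors, 1.54-fold higher, and the ectonucleotidase Entpd2 1.31-fold higher, while Thy1, at 1.02-fold lower, was not called. Of 5 mesothelial markers, Wt1 was 2.02-fold higher and Msln 1.45-fold higher, 2 were called lower, none by over 1.2-fold, and Podn, at 1.0-fold lower, was not called. The mesothelial list median was -0.00132 (log10 ratio). Its shares of 40.0% higher and 40.0% lower stand beside 19.2% and 37.3% of all features.

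Components of the TGF-beta and BMP pathways changed little. Of 31 tested, 14 were called higher, 8 lower and 9 not, with a list median of 0.0240 (log10 ratio), with 2 higher by over 1.2-fold. Those were follistatin (Fst), an activin trap, at 1.4-fold, and the ligand Tgfb3, at 1.29-fold. Tgfb1, the main profibrotic ligand, was 1.04-fold lower and its receptor Tgfbr1 1.06-fold lower. The inhibitory Smad7, itself a target of the pathway, was 1.16-fold higher. Of 10 target genes, 6 were called higher and 1 lower. Ccn2 lay between -0.484 and 0.618 with a median of 0.119 in collagen-high livers, and between -0.639 and 0.290 with a median of -0.148 in collagen-low livers. Ccn2, connective tissue growth factor, was 1.78-fold higher (difference 0.249 ± 0.0353, log10 ratio, SE, adjusted p = 5.18e-10), with 19 collagen-high mice above the collagen-low range and wide overlap of the rest.

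Among growth factor genes of the PDGF, FGF, IGF and hedgehog systems 9 of 24 were called higher and 10 lower. These are 37.5% and 41.7%, beside 19.2% and 37.3% of all features. The ligands Pdgfc and Pdgfa were 1.51-fold higher and 1.32-fold higher, and Pdgfb was 1.08-fold lower. The IGF-binding proteins Igfbp7, Igfbp3 and Igfbp5 were 1.45-fold higher, 1.34-fold higher and 1.32-fold higher. Fgf1 was 1.28-fold lower and Hhip, a decoy for hedgehog ligands, 1.17-fold lower. For integrins and collagen receptors the counts were 6 higher and 5 lower of 18. The collagen receptor Ddr1 was 1.37-fold higher and the laminin-binding Itga6 1.36-fold higher, whereas Ddr2, at 1.0-fold lower, was not called and the syndecan Sdc2 was 1.26-fold lower.

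Macrophage markers rose almost throughout. Of 20 macrophage and Kupffer cell markers 16 were called higher, 1 lower and 3 not, with a list median of 0.178 (log10 ratio). The summed level, taken as the mean of the markers in a mouse, lay between -0.298 and 0.230 with a median of 0.0327 in collagen-high livers and between -0.394 and 0.172 with a median of -0.135 in collagen-low livers. These ranges overlap over most of their length. Laptm5, a lysosomal protein of leukocytes, was 2.09-fold higher, Ctss, the protease cathepsin S, 1.95-fold higher, Cd14, the lipopolysaccharide co-receptor, 1.92-fold higher, the scavenger receptor Msr1 1.69-fold higher and Adgre1, which encodes F4/80, 1.55-fold higher. The complement subunits C1qa, C1qb and C1qc were 1.38-fold higher, 1.31-fold higher and 1.64-fold higher.

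Markers of resident Kupffer cells were mixed. Vsig4, a complement receptor of these cells, was 1.36-fold higher, and Cd5l, a secreted scavenger protein, 1.66-fold higher. Clec4f, Timd4 and Marco, at 1.1-fold, 1.08-fold and 1.19-fold, were not called. Cd163 lay between -0.950 and 0.355 with a median of -0.214 in collagen-high livers, and between -0.442 and 0.503 with a median of 0.101 in collagen-low livers. Cd163, the scavenger receptor for haemoglobin bound to haptoglobin, was 2.01-fold lower (difference -0.304 ± 0.0411, log10 ratio, SE, adjusted p = 1.07e-10), and it was lower in 3 of the 4 blocks. In the block of later numbers in the lower Eif2s3y cluster its difference was 0.00834.

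Genes of recruited and lipid-laden macrophages had 10 of 12 called higher and 1 lower, with the highest list median, 0.241, of all lists. Beside Gpnmb, Mmp12, Trem2, Cd63 and Itgax, lipoprotein lipase (Lpl) was 1.84-fold higher, the tetraspanin Cd9 1.53-fold higher and the chemokine receptor Ccr2 1.21-fold higher. Cx3cr1, the fractalkine receptor of patrolling monocytes, was 1.12-fold lower.

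Of 24 chemokines, 15 were called higher and 4 lower. These are 62.5% and 16.7%, beside 19.2% and 37.3% of all features. Ccl2 lay between -0.578 and 0.726 with a median of 0.0628 in collagen-high livers, and between -0.931 and 0.112 with a median of -0.500 in collagen-low livers. Ccl2, the monocyte attractant named above, thus had 34 collagen-high mice above every collagen-low mouse. Ccl4 and Ccl3 were 2.72-fold higher and 2.06-fold higher, Cxcl14 2.23-fold higher and the interferon-induced Cxcl10 1.69-fold higher. The neutrophil attractant Cxcl2 was 1.67-fold higher, while Cxcl1, at 1.01-fold lower, was not called. Cxcl12, which retains leukocytes, and the B cell attractant Cxcl13 were 1.17-fold lower and 1.29-fold lower.

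Lymphocyte markers showed no common direction, with 4 of 19 called higher, 5 lower and 10 not called. Their shares of 21.05% higher and 26.3% lower stand beside 19.2% and 37.3% of all features. Klrd1, a receptor of natural killer cells, was 1.97-fold higher, while the T cell genes Cd3e and Cd4 were 1.16-fold lower and 1.19-fold lower and Cd8a, at 1.01-fold lower, was not called. Of 8 MHC class II genes 5 were called higher and 1 lower. H2-Eb1 lay between -0.527 and 0.419 with a median of 0.0447 in collagen-high livers, and between -0.750 and 0.493 with a median of -0.311 in collagen-low livers. H2-Eb1, a chain of the peptide-presenting molecule, was 2.13-fold higher (difference 0.329 ± 0.0311, log10 ratio, SE, adjusted p = 4.60e-18) with wide overlap of the groups, and its relative H2-Aa 1.62-fold higher. Neutrophil markers had 5 higher and 5 lower of 12, each 41.7%, beside 19.2% and 37.3% of all features. The calprotectin subunits S100a9 and S100a8 were 1.54-fold higher and 1.39-fold higher, and Elane, neutrophil elastase, 1.13-fold lower.

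When the macrophage marker mean of each mouse entered the fit as a covariate, 8609 features were called, 8332 of them with the same direction as without it and 7 with the opposite. Col6a3 was then 2.15-fold higher, Tnc 2.78-fold, Gpnmb 5.26-fold, Cidea 6.15-fold and Pdgfrb 1.66-fold. Mmp12 was 3.78-fold higher against 6.22-fold without the covariate. The covariate is a mean of marker RNA and not a count of cells, so the part that macrophage number plays in the other differences was not tested.

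**Figure D3:**
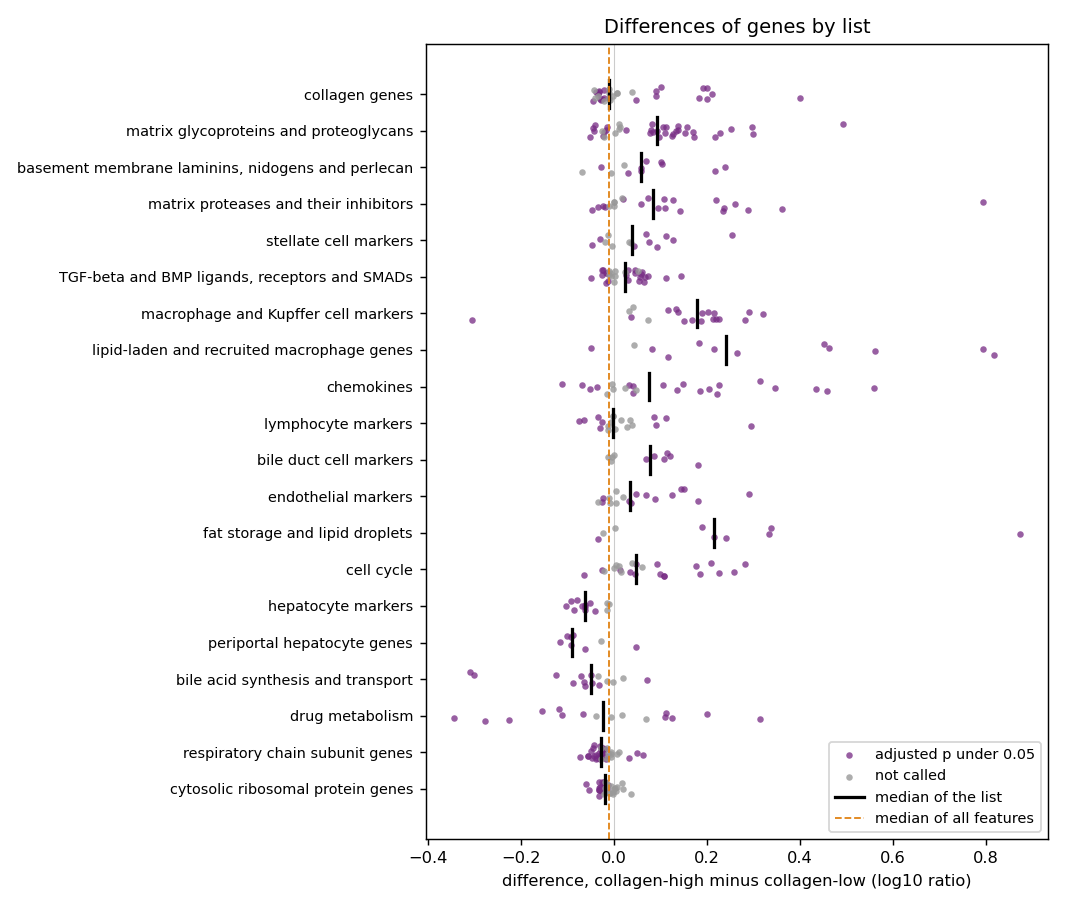
Differences between 75 collagen-high and 75 collagen-low mice (log10 ratio) for the genes of 20 lists, 1 point per gene, purple where the adjusted p is under 0.05. Black lines are list medians and the dashed line is the median of all features at -0.0104; the lists of macrophage genes and of fat storage stand highest, and those of hepatocyte and bile acid genes lie below it.

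Many bile duct and vessel genes rose and few fell. Of 10 bile duct markers 6 were called higher and 0 lower. The serine protease St14 was 1.52-fold higher, the adhesion molecule Epcam 1.32-fold higher and the chloride channel Cftr 1.3-fold higher, while the duct keratins Krt19, at 1.01-fold lower, and Krt23, at 1.03-fold lower, were not called. Of 18 endothelial markers 10 were called higher, 2 lower and 6 not, with a list median of 0.0356 (log10 ratio). Lyve1, of liver sinusoids and lymphatics, was 1.52-fold higher, Plvap, of the diaphragms of vessel pores, 1.42-fold higher and Vwf, von Willebrand factor, 1.34-fold higher. The pan-endothelial Pecam1, at 1.01-fold, was not called and Cdh5 was 1.05-fold lower.

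Hepatocyte genes fell by small amounts. Of 13 hepatocyte markers 0 were called higher, 10 lower and 3 not, with a list median of -0.0617 (log10 ratio). The largest falls were those of Serpina6, corticosteroid-binding globulin, at 1.27-fold lower, Otc, of the urea cycle, at 1.24-fold lower, and Asgr2, a subunit of the asialoglycoprotein receptor, at 1.22-fold lower. Hnf4a, a transcription factor that sets hepatocyte identity, was 1.12-fold lower, and transthyretin (Ttr), at 1.04-fold lower, was not called.

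Periportal genes had 6 of 8 called lower and 1 higher, and pericentral genes 5 of 12 lower and 3 higher. Lower calls thus made up 75.0% of the periportal and 41.7% of the pericentral genes, beside 37.3% of all features. The urea cycle enzymes Ass1 and Asl were 1.3-fold lower and 1.23-fold lower, and Hal, which degrades histidine, 1.26-fold lower. On the pericentral side Cyp2e1 was 1.32-fold lower, while glutamine synthetase (Glul) was 1.08-fold higher.

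The 15 named genes with the largest fall included enzymes of steroid, bile acid and drug metabolism. Hsd3b5 lay between -0.861 and 0.311 with a median of -0.469 in collagen-high livers, and between -0.697 and 0.469 with a median of 0.115 in collagen-low livers. Hsd3b5, a steroid-reducing enzyme known to be higher in livers of male mice, was 2.37-fold lower (difference -0.376 ± 0.0351, log10 ratio, SE, adjusted p = 2.37e-18). Igfbp2 lay between -0.645 and 0.257 with a median of -0.162 in collagen-high livers, and between -0.488 and 0.585 with a median of 0.211 in collagen-low livers. Igfbp2, an IGF-binding protein secreted by hepatocytes, was 2.3-fold lower (difference -0.362 ± 0.0294, log10 ratio, SE, adjusted p = 2.67e-22), and only 2 collagen-high mice lay above the median of the collagen-low mice. Cyp7b1 lay between -0.851 and 0.605 with a median of -0.272 in collagen-high livers, and between -0.731 and 0.831 with a median of 0.252 in collagen-low livers. The oxysterol hydroxylase Cyp7b1, of the alternative bile acid pathway, was 2.04-fold lower (difference -0.309 ± 0.0384, log10 ratio, SE, adjusted p = 3.77e-12). With the blocks pooled and not centred, ranges of collagen-high and collagen-low mice overlapped over most of their length for all of these. Within the block of upper Eif2s3y values and earlier numbers, no collagen-low value of Hsd3b5 lay under -0.0378. The collagen-high values of that block reached 0.239 in 1 mouse and -0.0161 in the next.

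The rest of the 15 were enzymes, receptors and secreted proteins. Of cytochromes P450, Cyp2c54 was 2.21-fold lower, Cyp2c37 1.89-fold lower and Cyp1a2 1.85-fold lower, the Cyp2c genes being close paralogs whose probes may share targets. Of receptors and transporters, the vasopressin receptor Avpr1a was 2.0-fold lower, the organic anion transporter Slco1a1 2.0-fold lower, the epidermal growth factor receptor Egfr 1.93-fold lower and Cd163 as given above. Bmf, a pro-apoptotic protein, was 1.91-fold lower, Rdh16f2, a retinol dehydrogenase relative, 1.81-fold lower, Nnmt, which methylates nicotinamide, 1.78-fold lower, the ribonuclease Rnase4 1.71-fold lower and the serpin Serpina3f 1.69-fold lower. In the middle mice the slope of Nnmt on the score was 0.00330 with an adjusted p of 0.989, which did not pass.

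Bile acid genes had 10 of 15 called lower and 1 higher. The export pump Abcb11 was 1.22-fold lower, the uptake carrier Slc10a1 1.15-fold lower and the bile acid receptor Nr1h4 1.08-fold lower, while Abcc3, which exports bile acids back to blood, was 1.18-fold higher. The sterol hydroxylase Cyp8b1, at 1.03-fold lower, was not called. Drug metabolism genes went both ways, 5 of 16 higher and 7 lower, or 31.25% and 43.75% beside 19.2% and 37.3% of all features. Cyp2c55 was 2.06-fold higher and the glutathione transferase Gsta2 1.59-fold higher, against Cyp3a13 at 1.43-fold lower and the nuclear receptor Nr1i3 at 1.29-fold lower.

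Cidea, the gene with the largest rise, is a lipid storage gene, and others of this list rose with smaller folds. Of 9 genes of fat storage and lipid droplets 6 were called higher, 1 lower and 2 not, with a list median of 0.215 (log10 ratio). Beside Cidea, the fatty acid carrier Fabp4 was 2.18-fold higher, the droplet coat protein Plin4 2.16-fold higher, Fitm1, which promotes droplet formation, 1.75-fold higher, the nuclear receptor Pparg 1.64-fold higher and the fatty acid uptake receptor Cd36 1.55-fold higher. All 6 were also called higher with the score in the middle mice. Plin1, the droplet coat of fat cells, was 1.08-fold lower.

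Lipogenic genes had 8 of 15 called higher and 2 lower. Fasn lay between -0.445 and 0.705 with a median of -0.0638 in collagen-high livers, and between -0.568 and 0.189 with a median of -0.271 in collagen-low livers. Fatty acid synthase (Fasn) was 1.6-fold higher (difference 0.204 ± 0.0282, log10 ratio, SE, adjusted p = 2.51e-10) with wide overlap, the desaturase Scd1 1.53-fold higher and the elongase Elovl6 1.42-fold higher. Srebf1, their transcription factor, was 1.19-fold higher, and Mlxipl, the carbohydrate-sensing factor ChREBP, 1.1-fold lower. Of 13 cholesterol genes 5 were called higher, 1 lower and 7 not called. The epoxidase Sqle was 2.46-fold higher and the reductase Dhcr7 1.44-fold higher. For fatty acid oxidation and PPAR-alpha targets the counts were 1 higher and 6 lower of 14, the lower calls being 42.9% beside 37.3% of all features. Pdk4, which spares glucose, was 1.43-fold higher, the thioesterase Acot1 1.37-fold lower, and Cpt1a, the gate of mitochondrial import, at 1.05-fold lower, was not called.

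Cell cycle genes had 14 of 23 called higher and 2 lower. Birc5 lay between -0.423 and 0.488 with a median of 0.0750 in collagen-high livers, and between -0.527 and 0.186 with a median of -0.206 in collagen-low livers. Birc5, which encodes survivin of the mitotic spindle, was 1.91-fold higher (difference 0.282 ± 0.0274, log10 ratio, SE, adjusted p = 2.11e-17), with 21 collagen-high mice above every collagen-low mouse. The cyclins Ccnb2, Ccna2 and Ccnd1 were 1.81-fold higher, 1.68-fold higher and 1.53-fold higher, and Mcm6, of the replicative helicase, 1.62-fold higher. The proliferation marker Mki67 was 1.11-fold higher, while Cdk1, at 1.03-fold, was not called and the checkpoint kinase Bub1 was 1.16-fold lower.

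Interferon response genes had 9 of 17 called higher, with Oasl2 at 1.74-fold and Ifit2 at 1.62-fold, and 3 lower, with Mx2 at 1.24-fold lower. Acute phase genes were 3 higher, 7 lower and 7 not called of 17. Their shares of 17.65% higher and 41.2% lower lie near the 19.2% and 37.3% of all features. Lipocalin Lcn2, made by hepatocytes and myeloid cells, was 1.65-fold higher, Saa1, at 1.01-fold, was not called, and Itih3 was 1.25-fold lower. Of 14 genes of the endoplasmic reticulum 3 were called higher, namely Atf3 (1.28-fold), Ddit3 (1.26-fold) and Asns (1.25-fold), and 5 lower, among them the chaperone Hspa5 at 1.14-fold lower. That is 21.4% higher and 35.7% lower, again near the shares of all features. Immediate early genes had 5 higher and 4 lower of 14, with Klf6 1.65-fold higher, Myc 1.39-fold higher and Egr1 1.39-fold lower.

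Respiratory chain and ribosomal protein genes were mostly called lower, by little. Of 38 respiratory chain subunits 3 were called higher, 25 lower and 10 not, with a list median of -0.0265 (log10 ratio), none of the changes exceeding 1.2-fold. Of 41 cytosolic ribosomal protein genes 0 were called higher, 23 lower and 18 not, with a list median of -0.0188 (log10 ratio). Among the first Ndufb11, of complex I, was 1.18-fold lower, and among the second Rps18 1.15-fold lower and Rps25 1.13-fold lower. These shares stand against the 37.3% of all features called lower.

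Markers of tissues that could lie beside a liver sample differed in their counts from list to list. Skeletal muscle genes had 0 of 8 called higher and 5 lower, the largest Mylpf at 1.09-fold lower, and pancreas genes 0 and 1 of 4. Red blood cell genes had 4 of 6 higher and 0 lower, with Epb42 1.41-fold higher and the globin Hbb-b1 1.3-fold higher and a list median of 1.18-fold, beside 19.2% of all features called higher. Hbb-b1 was not called with the score made without Col1a1 or with the macrophage covariate. Of 6 fat cell genes 2 were called higher, Fabp4 and Car3 (1.3-fold), and 3 lower, among them leptin (Lep) at 1.27-fold lower. Summed marker levels of collagen-high mice lay between -0.299 and 0.345 for red cells and between -0.102 and 0.148 for fat cells. In collagen-low mice they lay between -0.392 and 0.329 and between -0.163 and 0.0962 for the same lists. The part of blood or fat in the results was not tested.

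The 152 middle mice took no part in the comparison of extremes, and in them each gene was fitted on the score within blocks. Their scores had an SD of 0.303, so the range was narrow, and the same 3 genes define the score there. The slope was called with the score for 2.87% of features and against it for 3.69%. Of the 301 named genes that were over 1.5-fold higher in collagen-high mice, 136 were called in the same direction and 0 in the opposite one, and 298 had a slope of the same sign. Of the 33 that were over 1.5-fold lower, 16 were called in the same direction, 0 in the opposite one and 32 had the same sign. Over all features 42.2% of slopes were positive.

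Slopes of single genes in the middle mice give the size per unit of score. Col6a3 had a slope of 0.175 ± 0.0216 (log10 ratio per unit, SE, adjusted p = 3.66e-09), Gpnmb one of 0.390 ± 0.0522 (adjusted p = 4.27e-08) and Cd63 one of 0.224 ± 0.0323 (adjusted p = 5.25e-07). Acta2, at -0.0175 (adjusted p = 0.825), and Cd163, at -0.154 (adjusted p = 0.186), did not pass. By list, 13 of 39 matrix glycoproteins, 6 of 32 collagens and 6 of 12 lipid-laden macrophage genes were called with the score. Of the 20 general macrophage markers 1 was, Lyz2, and none of the hepatocyte markers rose with it.

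**Figure D4:**
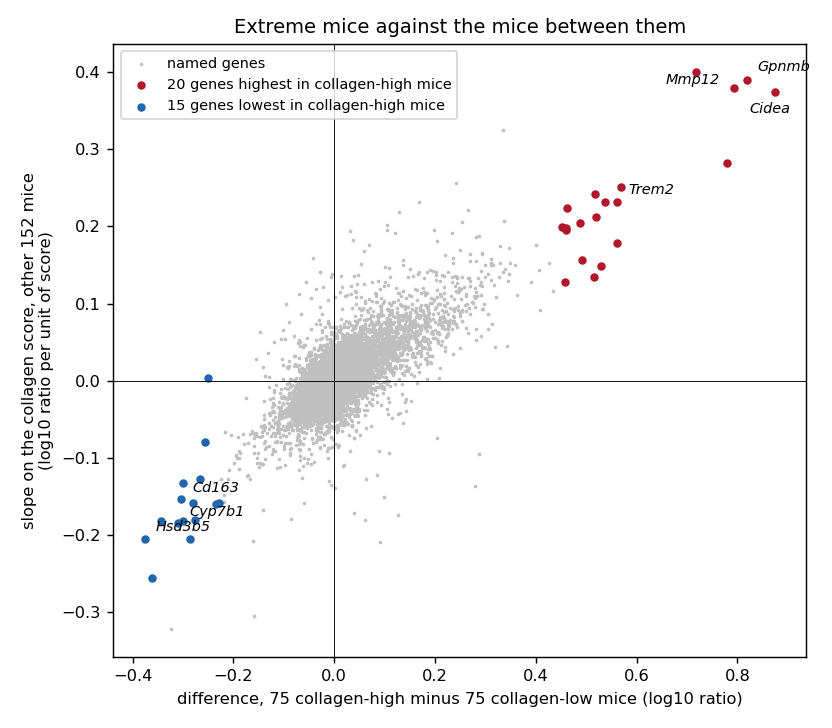
Slope on the collagen score in the 152 middle mice (log10 ratio per unit of score) against the difference of 75 collagen-high minus 75 collagen-low mice (log10 ratio), 1 point per named gene. The 20 genes with the largest rise, in red, all have positive slopes, and of the 15 with the largest fall, in blue, Nnmt has a slope near 0 at 0.00330.

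Each of the 4 blocks was also fitted alone, with 26 collagen-high against 26 collagen-low mice and 8885 calls for upper Eif2s3y values and earlier numbers. For upper values and later numbers there were 24 against 26 mice and 6005 calls, for lower values and earlier numbers 17 against 16 and 5131, and for lower values and later numbers 8 against 7 and 520. Of the named genes over 1.5-fold, 295 of 301 higher and 29 of 33 lower ones had the same sign in every block. These genes were picked in the fit of the same mice, so such agreement was likely beforehand. Gpnmb differed by 0.882, 0.842, 0.694 and 0.797 (log10 ratio) in the blocks in the order just given.

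The difference between collagen-high and collagen-low mice depended on the Eif2s3y cluster for 64 features, 0.295% of all, of which 40 are named genes. The upper cluster holds 50 collagen-high and 52 collagen-low mice with median scores of 1.2 and -1.02. The lower cluster holds 25 and 23, with median scores of 0.869 and -0.898, so the contrast in score is smaller there. Rad51b, a gene of DNA repair, was 2.86-fold higher in the upper cluster (difference 0.457 ± 0.0475, log10 ratio, SE) and differed by -3.43e-04 ± 0.0327 in the lower, with an adjusted p of 5.47e-05 for the difference between clusters. Col5a2 was 2.04-fold higher in the upper cluster (difference 0.310 ± 0.0236, log10 ratio, SE) and differed by -7.84e-04 ± 0.0743 in the lower, with an adjusted p of 0.00313 for the difference between clusters. Cidea was higher in both clusters, 13.2-fold in the upper and 2.22-fold in the lower, with an adjusted p of 0.00475 for the difference. Hsd3b5 was lower in both, 3.06-fold in the upper and 1.39-fold in the lower (adjusted p = 0.00440). Collagen-low mice of the lower cluster already had Hsd3b5 values between -0.697 and -0.0941, against -0.0651 or more in the upper. Whether that low level limits the fall in the lower cluster was not tested.

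Other genes went in opposite directions. Alas2, the erythroid enzyme of haem synthesis, differed by -0.0867 (log10 ratio) in the upper and by 0.108 in the lower cluster (adjusted p = 1.16e-04), and with quantile normalization the difference between clusters did not pass (adjusted p = 0.108). Trhde, an ectoenzyme that degrades thyrotropin-releasing hormone, differed by -0.140 and 0.0682 in the same order (adjusted p = 1.81e-04). The organic anion transporter relatives Slc22a26 and Slc22a29 changed in the lower cluster, by -0.328 and 0.147, against 0.0512 and -0.00912 in the upper, which were not called. The difference between clusters had an adjusted p of 1.31e-04 for Slc22a26 and of 0.00227 for Slc22a29.

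**Figure D5:**
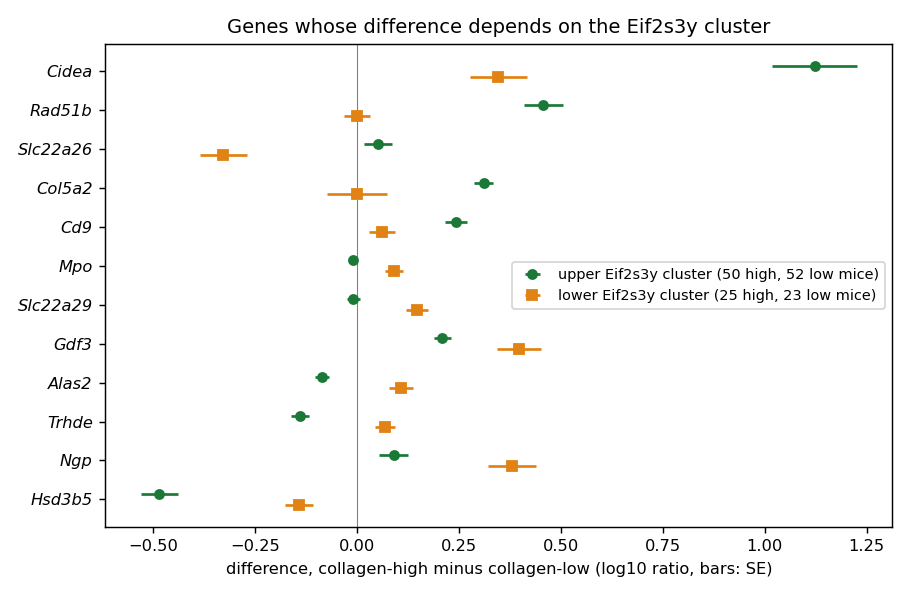
Difference of collagen-high minus collagen-low mice (log10 ratio, bars are SE) in the upper Eif2s3y cluster (circles, 50 and 52 mice) and the lower one (squares, 25 and 23 mice) for 12 named genes past the test of the difference between clusters. Cidea, Rad51b and Col5a2 differ more in the upper cluster, and Alas2 and Trhde lie on opposite sides of 0.

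Between later and earlier mouse numbers the difference depended on the range for 43 features, 0.198% of all, of which 18 are named genes. Without the 30 widest arrays 1 feature passed, and with quantile normalization 176, so this count depends on those arrays and on the scaling. Gdf3, a ligand of the TGF-beta family, was 1.39-fold higher in later and 2.32-fold higher in earlier numbers, with an adjusted p for the difference of 0.0111 with and 0.0914 without these arrays. The difference itself, later minus earlier, was -0.222 with and -0.222 without them. The protease Mmp7 differed by 0.00369 and 0.383 (log10 ratio) in later and earlier numbers, and the tetraspanin Tspan8 by 0.200 and 0.480, with adjusted p-values of 0.0404 and 0.0383. Neither passed without the widest arrays, where both had an adjusted p of 0.0914. The difference between ranges was then -0.392 for Mmp7, against -0.380 with these arrays, and -0.279 for Tspan8, against -0.281.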

How the data were processed

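The authors deposited 1 table of log ratios for 23562 probes and 302 mice, read here as log10 of mouse over pool, although base and direction are not stated. Per the labels each array carried mouse RNA in Cy3 and the pool in Cy5. How spots were read, corrected for background and normalized before deposit is not given in the sources used here. Probe intensities were not analysed here, so signal over background could not be judged. The deposited values end at -2 and 2, and 0.0831% are missing. Probes with values in at least 90% of mice were used, 23512 in all. Symbols came from the array's annotation, updated through a mouse gene table of GRCm38.p6: 13655 probes had 1 symbol, 48 several and 9859 none, and 12652 matched 10838 genes. Probes of a gene were averaged, and unnamed probes stayed features of their own. No count of reads or molecules exists for arrays, and the number of mice limits the precision.

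Differences were fitted with limma 3.58.1 in R 4.3.3 (lmFit, eBayes) with the 4 blocks as covariates, two-sided, with the Benjamini-Hochberg adjustment over all 21703 features at 0.05. Fold changes are 10 to the power of the fitted difference. Slopes in the middle mice and interactions with the Eif2s3y cluster or the number range used the same tool. The blocks are not stated by the labels, and no sex was assigned to a mouse. The 20 largest rises and the 15 largest falls among called genes were named, leaving out symbols of unnamed transcripts and pseudogenes, and up to 5 genes per list and direction and 5 per interaction, with further list members as examples chosen after their values were seen. Collagen genes, cell markers and pathway lists, like the groups, were chosen with earlier results of these data known, so no list was given a test. Nothing says which mice share a litter or a day, and p-values measure the spread between mice. On simulated data with 50 features changed at each size, 28 were recovered at 1.1-fold, 47 at 1.2-fold and 50 at 1.5-fold, with 7 of 21342 unchanged features called. The simulated features varied independently of each other and of the score. In the measured data features vary together and the mice were chosen by expression, so the simulation does not give the rate of false calls there.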

Additional observations from a re-analysis of the deposited data

Results flagged for a closer look

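Of the 40 named genes past the test, 12 are members of the lists or named for the largest changes or the smallest p. In these 12 the difference of collagen-high minus collagen-low mice was itself different between the upper and the lower Eif2s3y cluster at an adjusted p under 0.05 (limma interaction term). As upper minus lower, in log10 ratio, it was 0.775 for Cidea, 0.457 for Rad51b, 0.379 for Slc22a26, 0.311 for Col5a2 and 0.181 for Cd9. It was -0.343 for Hsd3b5, -0.291 for Ngp, -0.208 for Trhde, -0.195 for Alas2, -0.189 for Gdf3, -0.157 for Slc22a29 and -0.102 for Mpo. Ngp, a neutrophil granule protein, was 1.23-fold higher in collagen-high mice of the upper cluster and 2.4-fold higher in those of the lower, and the granule enzyme Mpo differed by -0.0105 and 0.0911 (log10 ratio). Calls were lost for Gdf3 without the 30 widest arrays (adjusted p = 0.113) and with the array SD as covariate (0.0594), and for Alas2 (0.108) and Cd9 (0.0769) with quantile normalization. The other 9 stayed under 0.05 in these 3 settings.

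Between the later and the earlier range of mouse numbers 18 named genes passed. The 6 of them chosen in the same way differed, as later minus earlier by 0.0962 for Alppl2, -0.222 for Gdf3, -0.256 for Grhl1, -0.380 for Mmp7, 0.0864 for Scn11a and -0.281 for Tspan8. None of the 6 passed without the 30 widest arrays, where their adjusted p ran from 0.0914 to 0.163. The differences without them were 0.0672 for Alppl2, -0.222 for Gdf3, -0.250 for Grhl1, -0.392 for Mmp7, 0.0803 for Scn11a and -0.279 for Tspan8. Grhl1, an epithelial transcription factor, differed by -0.145 in later and by 0.111 in earlier numbers. The groups hold more than 10 mice each, so single mice were not tested as outliers.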

How the results depend on the processing

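Features called higher numbered 4171 and lower 8102. They moved by over 1.5 times only in single blocks and with a minimum fold. Alone, the upper Eif2s3y block of later numbers gave 2418 higher and 3587 lower, the lower block of earlier numbers 1824 and 3307, and the lower block of later numbers, with 8 and 7 mice, 318 and 202. Above 1.2-fold 1611 and 526 remained. The share of calls that were higher was 34.0% as reported, 37.0% with quantile normalization and 61.1% in the smallest block. The test between number ranges called 43 features, 176 after quantile normalization and 1 without the 30 widest arrays; the cause was not tested. The other settings, which were no block, 50 or 100 mice per group, the ends of each block in equal share, scores without Col1a1, Col1a2 or Lum, a slope over all mice, single probes, the array SD as covariate, complete features, limits as missing, trended and robust variances and the macrophage covariate, kept these counts within 1.5 times.

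Of 3075 repeats of the 205 called genes named in the text over 15 settings, 3037 kept direction and call, 33 lost the call and 5 turned. Those 5 are macrophage genes under the covariate made from their own list, Adgre1 at -0.00922, C1qa at -0.0226, C1qb at -0.00115, Cd5l at -0.00181 and Vsig4 at -0.0569 (log10 ratio). Complete features, limits as missing, and trended and robust variances hardly alter a fitted difference, and with each of them all 205 stayed. The 205 genes were called in mice that the settings use again, wholly or in part. The total of kept calls is therefore no test in other mice. Calls were lost with the macrophage covariate for Abcc3, C1qc, Colec10, Cyp3a13, Egr1, Hbb-b1, Mlxipl, Mmp9, Nes, Nr1h4, Plin1, S100a8, S100a9, Slc10a1 and Trhde, with the score without Col1a1 for Col5a3, Hbb-b1, Nr1h4 and Srebf1, and with that without Lum for Colec10, Glul, Serpina6 and Slc22a29. Egr1 also lost its call with 50 mice per group and without the widest arrays, Plin1 with the array SD as covariate, Srebf1 and Slc22a29 with 50 mice per group, as a slope and with quantile normalization, and Slc22a29 with no block. In single blocks 234 of 820 lost the call and 15 turned. In the smallest block these were Abcc3 at -0.0346, Ccnd1 at -0.142, Cd163 at 0.00834, Col5a2 at -0.0428, Glul at -0.0469, Nes at 0.0228, Pdk4 at -0.0426, Ppib at 0.00721 and Trhde at 0.131. In the others they were Rad51b at -0.0303 and Trhde at 0.0398 in the lower block of earlier numbers, Mmp7 at -0.0160 in the upper block of later numbers, and Hbb-b1 at -0.00186, Slc22a29 at -0.0223 and Srebf1 at -0.0397 in the upper block of earlier numbers. No paired analysis was possible because each mouse number occurs once.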
